A study of Mus musculus with 7 samples.

Results

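The homeobox genes Hoxc13, Dlx2, Dlx3, Msx1, Msx2 and Lhx2, the hedgehog pathway genes Ptch1 and Gli1, the ectodysplasin receptor gene Edar and the chromatin organiser gene Satb1 were followed in cultured mouse keratinocytes, the main cell type of the epidermis, taken as primary cells. Every probe set whose only gene symbol in the platform annotation was one of these 10 names was taken, which gave 15 probe sets of 22626 tested. All 10 genes had at least 1, and Ptch1, Dlx3, Msx1 and Satb1 had more than 1. The cells had been transfected with small interfering RNA (siRNA) directed at Trp63, the gene of the epithelial transcription factor p63 (5 arrays, replicates 1, 2, 3, 4 and 7), or with non-specific siRNA as control (2 arrays, replicates 5 and 6). All were harvested 48 h later. The labels give no strain, age or number of animals. Nor do they state that each replicate came from its own culture, and the p-values therefore reflect the spread among these arrays, part of which could be technical.

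Skin appendages such as hair, teeth and glands form where epithelium and mesenchyme exchange signals. Hedgehog ligands bind the receptor encoded by Ptch1 and so release the signal transducer Smo from inhibition, and GLI transcription factors then act on target genes that include Ptch1 and Gli1 themselves. Ectodysplasin acts through Edar, the adaptor Edaradd and NF-kB in the early placode. Homeobox genes encode DNA-binding regulators: Hoxc13 is known for the hair shaft and nail, Dlx3 for hair and upper epidermis, Msx1 and Msx2 for tooth, skull and hair, Dlx2 for the craniofacial skeleton and Lhx2 for follicle stem cells. Satb1 encodes a protein that folds chromatin and, in mouse epidermis, is known as a p63 target that acts on the locus of differentiation genes.

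Trp63 itself read 541, 519, 457, 504 and 492 on the Trp63 siRNA arrays, against 1447 and 1683 on the control siRNA arrays (brightest probe set, log2 difference -1.61, SE 0.088, limma adjusted p = 1.0e-05). Median intensity lay between 207 and 214 on the 7 arrays, whose number limits the precision of every value. Of all probe sets 16% passed the threshold in limma, 8.16% lower and 7.83% higher with Trp63 siRNA. The arrays also differed in ways that the groups do not explain. Summed melanocyte markers read 11481 and 12153 on silenced replicates 1 and 2 and 6997 to 7382 on silenced replicates 3, 4 and 7, against 10230 on control replicate 5 and 6839 on control replicate 6. Bacterial spike-in controls were higher on silenced replicates 2, 3 and 7 than on the other 4 arrays, which include both controls.

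In level, 4 of the 10 genes (Ptch1, Dlx3, Msx2 and Satb1) were above the array median on all 7 arrays at their brightest probe set, against 50.6% of all 12393 genes. Msx2 lay between the 65.9th and 68.6th percentile of each silenced array and at 62.3 and 66.5 on the control arrays. Msx1 was above the median on 6 arrays and just below it on control replicate 6, and Hoxc13 was above it on control replicate 6 alone. Gli1, Dlx2, Lhx2 and Edar were below the median on every array, with percentiles between 13.0 and 33.7. A list of 17 measured genes of other tissues, such as liver, pancreas and testis, averaged 75.6 to 222 per gene over the arrays with a median of 116, and 0 of the 17 were above the median on all arrays. The 4 dim genes lay within that range. No detection calls were used, and a change at such levels might not be detectable.

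**Figure D1:**
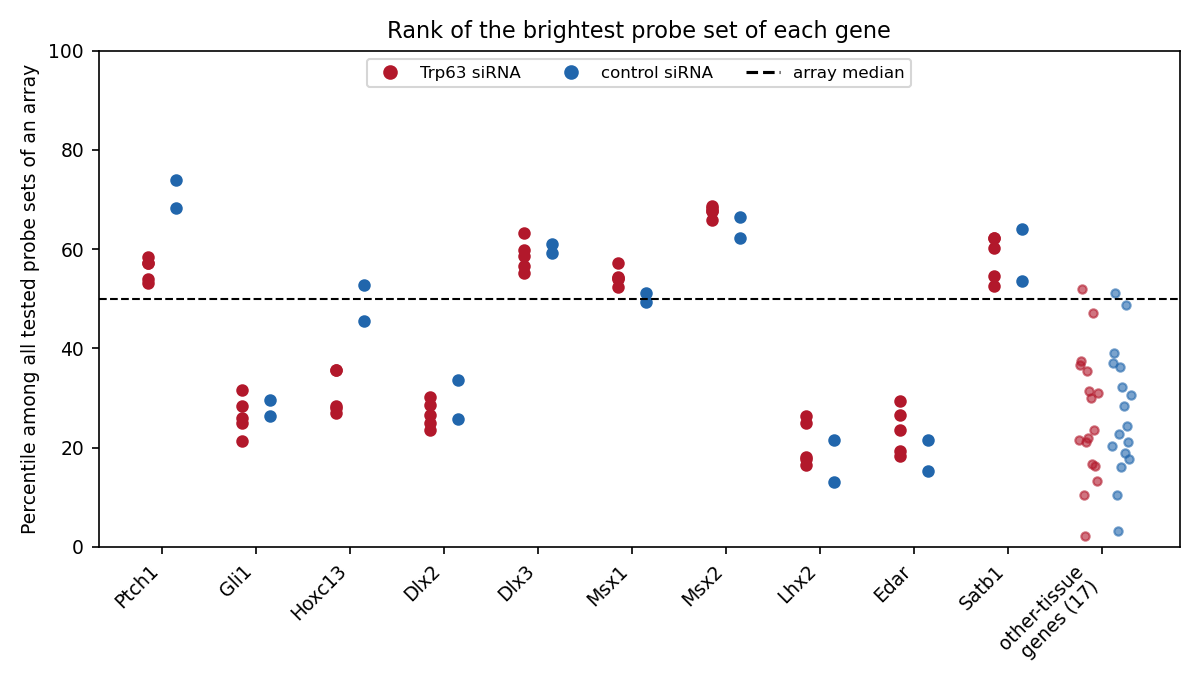
Percentile of the brightest probe set of each of the 10 genes among the 22626 probe sets of an array, with 1 point per array (Trp63 siRNA left of control siRNA) and the dashed line at the array median; the last column shows the group mean percentile of each of 17 genes of other tissues. Ptch1, Dlx3, Msx2 and Satb1 sit above the line on all 7 arrays, and Gli1, Dlx2, Lhx2 and Edar sit below it among the genes of other tissues.

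Of the 15 probe sets, 2 fell with Trp63 siRNA, 0 rose and 13 did not pass the test, at a background of 16% of all probe sets called. Without the adjustment 3 of the 13 had a p under 0.05 (1 of Msx1 upward, 1 of Msx1 and 1 of Satb1 downward). The probe sets that fell belonged to Ptch1 and Hoxc13. The median log2 difference of the 15 was -0.06, beside -0.03 for all probe sets. Groups did not overlap at 4 of the 15 probe sets (Ptch1, Hoxc13, Msx1 and Satb1), the Msx1 probe set above and the other 3 below the controls, while 36.6% of all probe sets showed no overlap, 22.4% with every silenced array below and 14.2% with every silenced array above. Neither count stood above its background. The 13 others differed by -0.15 to 0.16, and all their 95% intervals lay between -0.42 and 0.32.

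**Figure D2:**
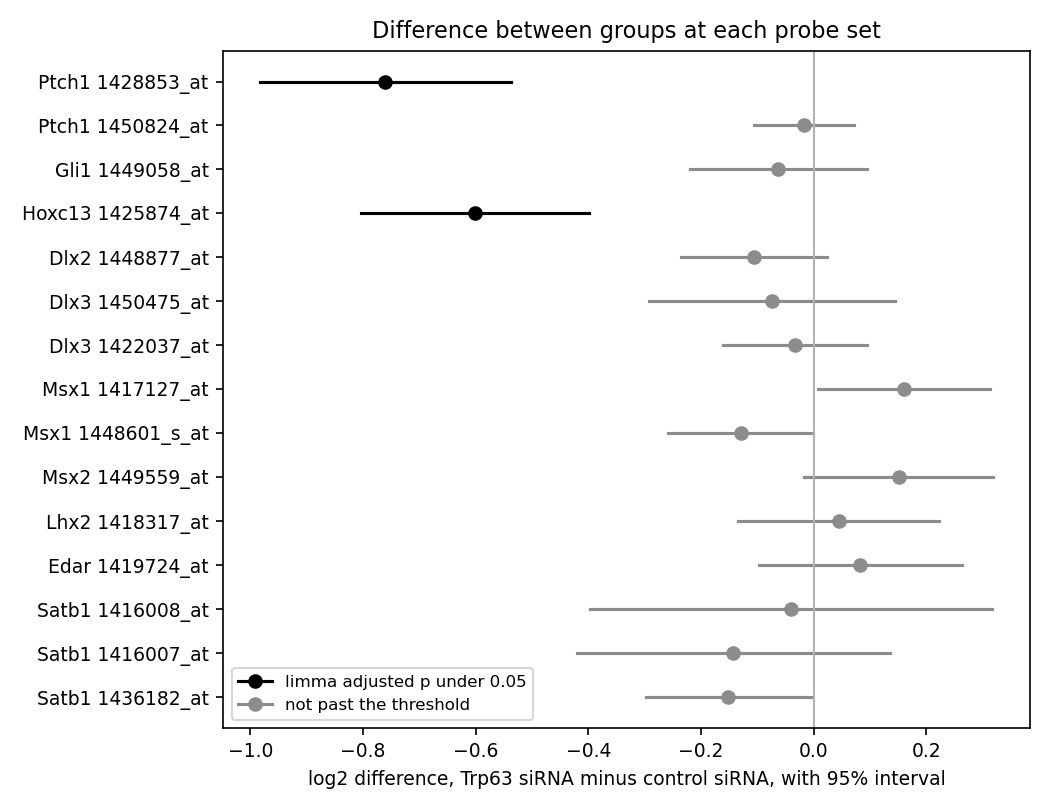
Difference between Trp63 siRNA and control siRNA at each of the 15 probe sets on the log2(intensity + 16) scale, with limma's 95% interval as a bar. Ptch1 at -0.76 and Hoxc13 at -0.60 stand apart from 0, and the 13 grey probe sets lie between -0.15 and 0.16.

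Ptch1 encodes the hedgehog receptor, which restrains the pathway and is itself induced by it. Its brighter probe set, 1428853_at, read 274, 263, 231, 241 and 264 with Trp63 siRNA, against 393 and 495 with control siRNA. Every silenced array was below both controls. The group means were 254 ± 17.8 (SD, n = 5) and 444 ± 71.9 (SD, n = 2), so that the silenced mean was 57.3% of the control mean (1.69-fold lower on the log2 scale with the pseudocount, difference -0.76, SE 0.098, limma adjusted p = 0.00105). The other Ptch1 probe set, 1450824_at, was dim and flat. It read between 116 and 125 with Trp63 siRNA and 119 and 123 with control siRNA (log2 difference -0.02, 95% interval -0.11 to 0.07). The mean of both probe sets differed by -0.39 (limma adjusted p = 0.0036), a fall that comes from the brighter one. In these bulk samples fewer cells that carry a transcript and less of it per cell cannot be told apart.

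The log2 difference of Ptch1 was -0.53 among the arrays of higher melanocyte level (2 silenced against 1 control) and -0.97 among those of lower level (3 against 1), values given without a test because each has a single control. Among the 4 arrays of low spike-in level it was -0.74 and missed the threshold (2 against 2, limma adjusted p = 0.0536). With the spike-in level as a block the limma adjusted p was 0.0111. That fit gives the same difference, because both controls have a low level. The silenced arrays of high level add only to the estimated spread. Leaving out any single array left an adjusted p between 0.000472 and 0.0166.

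RefSeq's GRCm38.p6 table holds 1 promoter window for Ptch1, shown because Ptch1 fell, at chr13:63565686-63565985 on the minus strand, from 250 bases before to 50 bases after an annotated start. It was searched on both strands for the GLI site GACCACCCA, for CATG and a further CATG after 6 bases of any kind (the cores as spaced in sites of the p53 family) and for the homeodomain core TAATTA, and held none, so no base is in capitals.
Ptch1: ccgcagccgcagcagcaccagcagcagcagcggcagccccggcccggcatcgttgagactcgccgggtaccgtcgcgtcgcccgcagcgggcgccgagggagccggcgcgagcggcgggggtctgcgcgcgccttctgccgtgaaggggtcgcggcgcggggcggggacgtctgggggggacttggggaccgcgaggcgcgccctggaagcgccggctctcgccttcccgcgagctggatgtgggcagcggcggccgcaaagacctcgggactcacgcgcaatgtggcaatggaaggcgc
Windows of 7 of the 10 genes were in the table, 12 in all, and Gli1, Hoxc13 and Dlx3 had none. The GLI site is present in 0.253% of all 32851 windows, the CATG pair in 0.712% and TAATTA in 5.29%. Of the 12 windows, 0 held the GLI site, 0 the CATG pair and 1 TAATTA. The absence says only that these letters are not in these windows.

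Gli1, which encodes the GLI factor most used as a readout of the pathway, was dim. It read 135, 124, 116, 121 and 109 with Trp63 siRNA, against 133 and 121 with control siRNA. The groups overlapped (log2 difference -0.06, 95% interval -0.22 to 0.09, limma adjusted p = 0.577). Of 22 other measured hedgehog pathway genes, 5 fell and 0 rose, 17 missed the threshold, and the median log2 difference was -0.10. Taking the brightest probe set of each of the 12393 genes, 16.6% were called, 8.57% lower and 8.03% higher. Gas1, whose membrane protein helps the ligand bind Ptch1, read 266 ± 14.6 (SD, n = 5) with Trp63 siRNA and 371 ± 15.3 (SD, n = 2) with control siRNA (log2 difference -0.46, SE 0.069, limma adjusted p = 0.00239). The cyclin gene Ccnd1 fell by 0.26 on the log2 scale, from a high level (2529 with Trp63 siRNA and 3042 with control siRNA). The kinase gene Gsk3b fell by 0.31, the ciliary transport gene Ift88 by 0.23 and the ligand co-receptor gene Boc by 0.20, the last pair below the array median. Gas1 kept its call whichever array was left out. Only 1 gene of the list fell without control replicate 6, 2 fell without control replicate 5 or silenced replicate 3, and 3 without silenced replicate 2, 4 or 7. Without silenced replicate 1, 7 fell and 1 rose. With the spike-in level as a block 1 fell. Gsk3b lost its call in 6 of the 7 fits that left out an array, all but that without silenced replicate 1, and under quantile normalisation and median centring. Boc lost its call without either control or silenced replicate 3, 4 or 7, Ift88 without either control or silenced replicate 2 or 3, and Ccnd1 without control replicate 6.

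The core of the pathway, given here for its role but named after its values were seen, was measured above the array median for Smo, Gli2, Gli3 and Sufu. Smo, the signal transducer, read 499 to 566 with Trp63 siRNA, against 579 and 696 with control siRNA (log2 difference -0.22, limma adjusted p = 0.129). Gli3, mainly a repressor, read 216 to 257 with Trp63 siRNA, against 266 and 289 with control siRNA (log2 difference -0.24, limma adjusted p = 0.0606). The inhibitor gene Sufu read 222 to 269 with Trp63 siRNA, against 273 and 282 with control siRNA (log2 difference -0.20, limma adjusted p = 0.118). Gli2, the main activator, read 312 to 350 with Trp63 siRNA, against 352 and 356 with control siRNA, and differed by -0.09 (limma adjusted p = 0.381), and the ligand gene Shh, below the array median on all arrays, averaged 114 with Trp63 siRNA and 110 with control siRNA. Smo, Gli2, Gli3 and Sufu were each below both controls on all 5 silenced arrays without passing the test, an order that 22.4% of all probe sets showed. Gli3 and Sufu passed without silenced replicate 1 (limma adjusted p = 0.0123 and 0.0187).

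**Figure D3:**
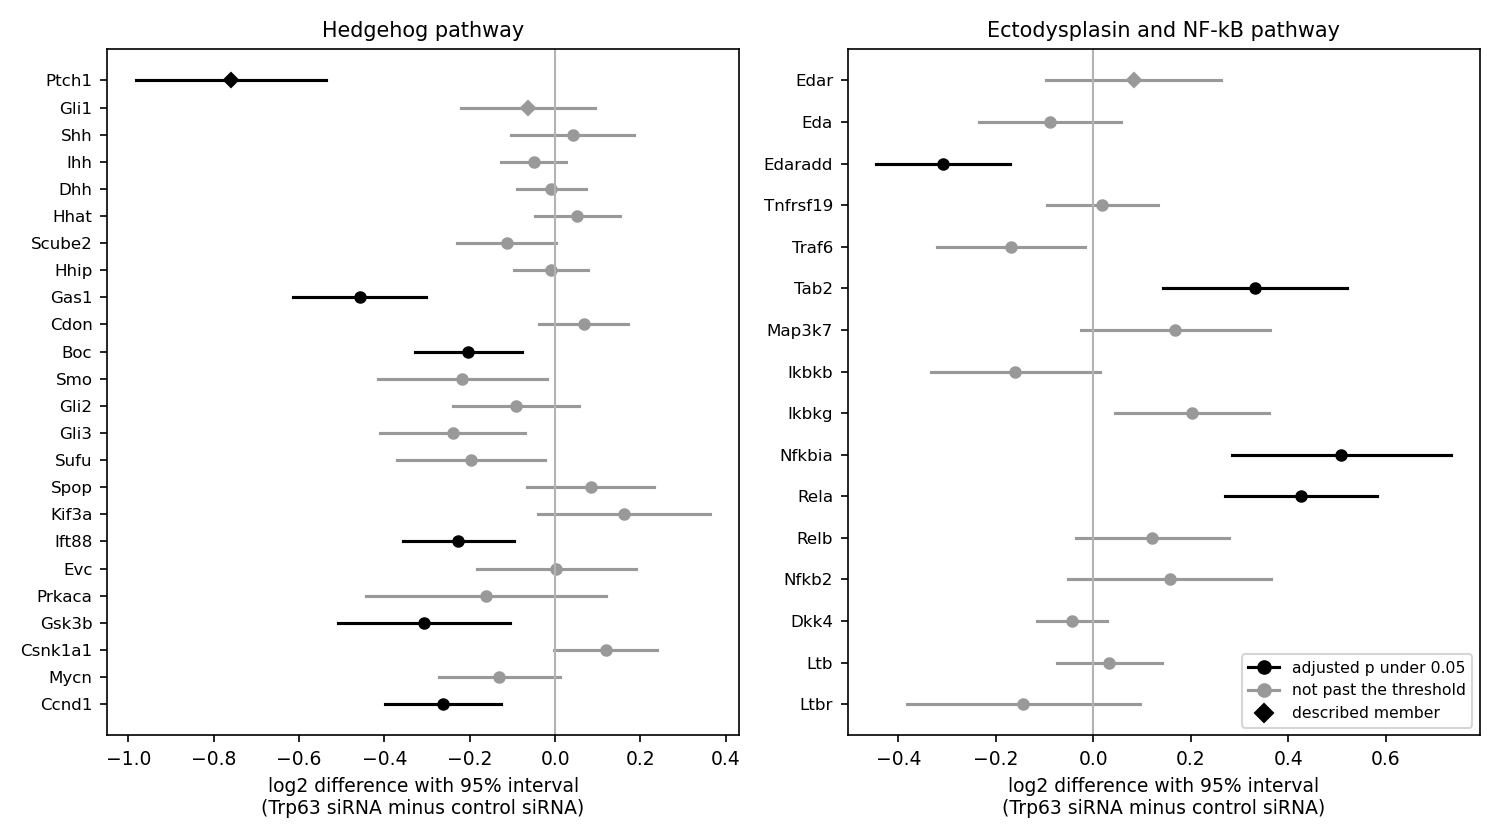
Log2 differences (Trp63 siRNA minus control siRNA) with limma's 95% interval for the hedgehog genes (left) and the ectodysplasin and NF-kB genes (right), each at its brightest probe set; diamonds mark Ptch1, Gli1 and Edar and black marks an adjusted p under 0.05. Ptch1 at -0.76 and Gas1 at -0.46 are the lowest on the left, and Nfkbia at 0.51 and Rela at 0.43 are the highest on the right.

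Hoxc13, the homeobox gene of the hair shaft and nail, had 1 probe set. It read 147, 144, 124, 123 and 123 with Trp63 siRNA, against 190 and 228 with control siRNA. All silenced arrays were below both controls. The means were 132 ± 12.3 (SD, n = 5) and 209 ± 26.6 (SD, n = 2), a log2 difference of -0.60 with an SE of 0.090 (1.52-fold lower, limma adjusted p = 0.00227). The silenced values lay between the 27.1th and 35.7th percentile of their arrays, against 45.5 and 52.7 on the controls. Both group means lay within the range of genes of other tissues. The log2 difference was -0.35 among the arrays of higher melanocyte level (2 silenced against 1 control) and -0.81 among those of lower level (3 against 1), again without a test. It was -0.57 among those of low spike-in level (2 against 2, limma adjusted p = 0.0654). The fit with the spike-in level as a block gives the same difference, because both controls have a low level. With the spike-in level as a block the adjusted p was 0.0215, and leaving out any single array left 0.000678 to 0.0397.

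Of 30 other measured Hox genes, 3 rose, 0 fell and 27 did not pass (median -0.01), while 8.03% of all genes rose and 8.57% fell. Hoxb2 read 252 ± 11.1 (SD, n = 5) with Trp63 siRNA and 175 ± 10.7 (SD, n = 2) with control siRNA (log2 difference 0.49, SE 0.063, limma adjusted p = 0.00106). Hoxc8 and Hoxc5, which lie in the same cluster as Hoxc13, rose by 0.29 and 0.17, at 214 and 165 with Trp63 siRNA and 173 and 145 with control siRNA, near or below the array median. Hoxb2 kept its call whichever array was left out, Hoxc8 lost its call without control replicate 5, and Hoxc5 lost its call when control replicate 5 or 6 or silenced replicate 3, 4 or 7 was left out. Foxn1, a forkhead gene that Hoxc13 is known to act on in mouse follicles, read 137 ± 17.3 (SD, n = 5) with Trp63 siRNA and 153 ± 8.76 (SD, n = 2) with control siRNA (limma adjusted p = 0.324). Of 11 measured hair shaft keratins 0 passed limma's test (2 of the 11, Krt31 and Krt81, had an unadjusted p under 0.05), and 2 were above the array median on all arrays. Krt31 and Krt81 differed by -0.11 and -0.16 (limma adjusted p = 0.0679 and 0.119).

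**Figure D4:**
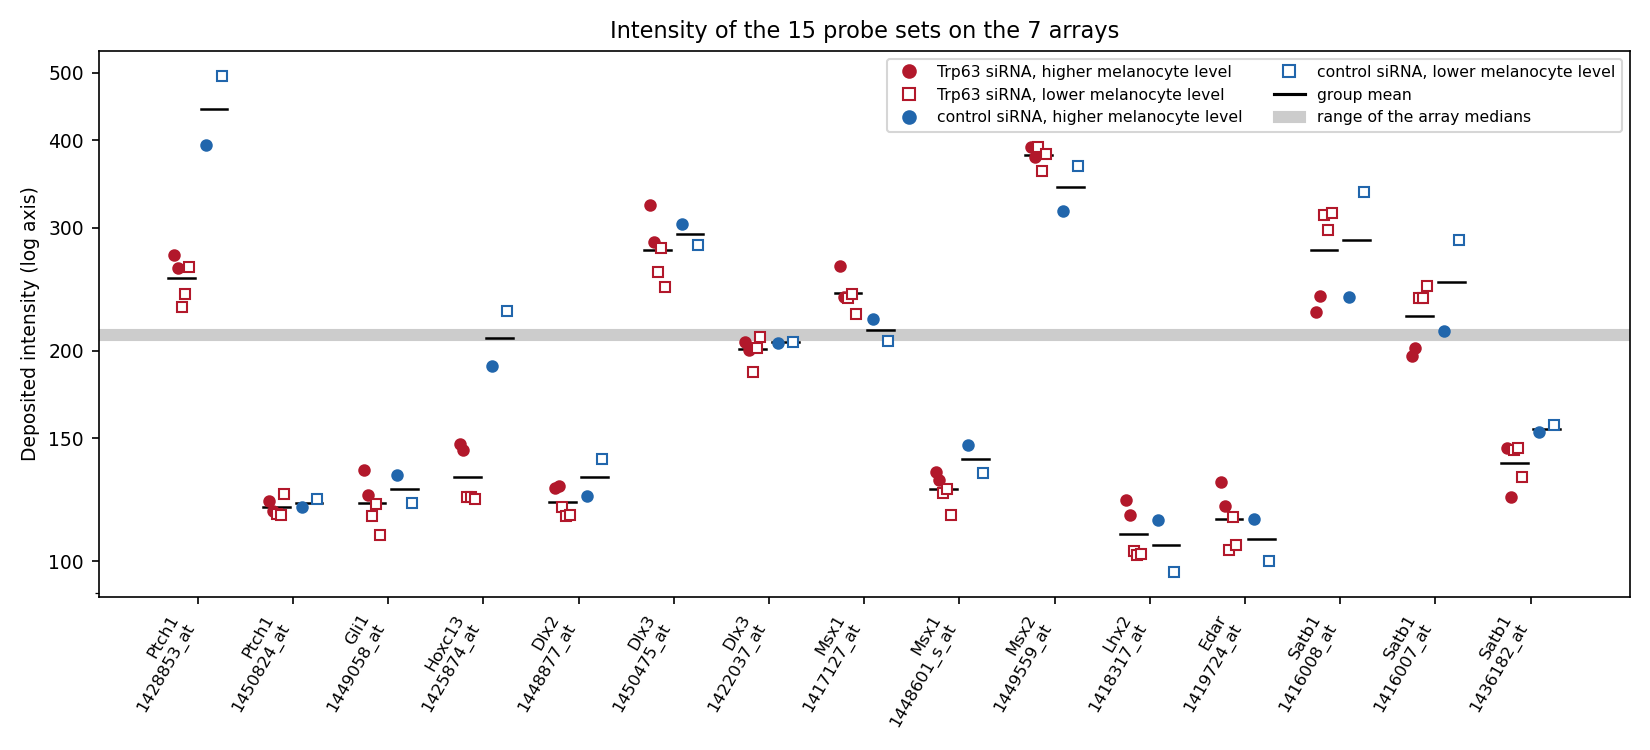
Deposited intensity (log axis) of each of the 15 probe sets on every array, Trp63 siRNA left of control siRNA, with group means as lines and the range of the array medians (207 to 214) as a grey band; filled circles are arrays of higher melanocyte level. Ptch1 probe set 1428853_at and Hoxc13 show silenced arrays well below both controls. The bright Satb1 probe sets split by melanocyte level. At 1416007_at the control is above the silenced arrays within each level, and at 1416008_at within the lower level alone.

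Dlx3, a homeobox gene of hair and of the differentiating epidermis, was measured above the median at its brighter probe set. It read 323, 286, 259, 280 and 246 with Trp63 siRNA, against 304 and 283 with control siRNA. The silenced arrays spanned both controls (log2 difference -0.07, 95% interval -0.29 to 0.14, limma adjusted p = 0.643). The other probe set, near the median, differed by -0.03 (95% interval -0.16 to 0.10). Dlx2 was dim, between 116 and 128 with Trp63 siRNA and at 124 and 140 with control siRNA (log2 difference -0.11, limma adjusted p = 0.248). It differed by -0.23 among the arrays of lower melanocyte level and by 0.04 among those of higher level, each with 1 control and no test.

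Msx2, a homeobox gene of hair and skull, was above the array median on every array. It read 392, 379, 391, 361 and 383 with Trp63 siRNA, against 317 and 368 with control siRNA. Of the silenced arrays 4 were above both controls and 1 lay between them (log2 difference 0.15, 95% interval -0.02 to 0.32, limma adjusted p = 0.205). Its RefSeq promoter window, chr13:53472731-53473030 on the minus strand of GRCm38.p6, is shown because it was the 1 window of the 12 with a homeodomain core, TAATTA, in capitals 187 bases before the start.
Msx2: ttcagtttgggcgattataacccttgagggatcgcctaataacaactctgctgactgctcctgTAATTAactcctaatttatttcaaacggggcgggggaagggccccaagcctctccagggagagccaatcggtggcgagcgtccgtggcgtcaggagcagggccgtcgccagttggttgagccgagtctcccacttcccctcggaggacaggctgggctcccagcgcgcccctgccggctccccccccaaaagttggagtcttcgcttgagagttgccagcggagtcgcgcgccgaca
Msx1, the related gene best known from the tooth, gave opposite signs at its probe sets. At 1417127_at it read 264, 239, 238, 241 and 226 with Trp63 siRNA, against 222 and 207 with control siRNA, with no overlap (log2 difference 0.16, 95% interval 0.01 to 0.31, limma adjusted p = 0.148). The dimmer 1448601_s_at read 116 to 134 with Trp63 siRNA and 146 and 134 with control siRNA (log2 difference -0.13, limma adjusted p = 0.16). Neither passed, and their mean differed by 0.02.

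Of 17 other measured Dlx, Msx, Lhx and Satb genes and their partners, 1 fell, 0 rose and 16 did not pass (median -0.03). The gene that fell was Ldb1, which encodes the cofactor that LIM homeodomain proteins such as Lhx2 bind, at 459 ± 24.7 (SD, n = 5) with Trp63 siRNA and 587 ± 67.3 (SD, n = 2) with control siRNA (log2 difference -0.34, limma adjusted p = 0.0259). It lost its call without control replicate 6 or silenced replicate 3 or 7. Ldb1 was also the 1 gene of this list above the array median on all arrays. Of 22 other homeobox genes of skin, 2 rose and 2 fell (median 0.0005), while 8.03% of all genes rose and 8.57% fell. Pou3f1, a POU homeobox gene of keratinocytes, read 452 ± 30.4 (SD, n = 5) with Trp63 siRNA and 885 ± 268 (SD, n = 2) with control siRNA (log2 difference -0.91, SE 0.14, limma adjusted p = 0.00303). Hopx, whose homeodomain does not bind DNA, rose by 0.91 (5343 ± 573 with Trp63 siRNA and 2957 ± 1285 with control siRNA, limma adjusted p = 0.0149). The difference of Hopx was 1.37 without control replicate 5 and 0.46 without control replicate 6, where it missed the threshold, as it did with robust eBayes. Pbx3, a partner of Hox proteins, rose by 0.30, and the dim Alx4 fell by 0.35. Pbx3 and Alx4 lost their calls without either control, and Alx4 also without silenced replicate 4.

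Lhx2, a LIM homeobox gene of follicle stem cells, read 122, 116, 103, 102 and 102 with Trp63 siRNA, against 115 and 96.4 with control siRNA. The groups overlapped (log2 difference 0.04, 95% interval -0.13 to 0.22, limma adjusted p = 0.739). Edar, the receptor of the hair placode, read 130, 120, 104, 116 and 105 with Trp63 siRNA, against 115 and 100.1 with control siRNA (log2 difference 0.08, 95% interval -0.10 to 0.26, limma adjusted p = 0.517). Both genes were below the array median on every array. Around Edar, 3 of 15 measured ectodysplasin and NF-kB genes rose, 1 fell and 11 did not pass (median 0.03). Among all 12393 genes 8.03% rose and 8.57% fell. Edaradd, the adaptor of Edar, fell by 0.31 but was dim (119 ± 7.05 with Trp63 siRNA and 151 ± 11.6 with control siRNA, limma adjusted p = 0.00876). Nfkbia, an inhibitor of NF-kB that NF-kB induces, rose by 0.51 (3461 ± 355 with Trp63 siRNA and 2420 ± 198 with control siRNA, limma adjusted p = 0.00849). The NF-kB subunit gene Rela rose by 0.43 and the kinase adaptor gene Tab2 by 0.33. The ligand gene Eda differed by -0.09 (limma adjusted p = 0.385). Without control replicate 6, 0 of these genes rose, and without control replicate 5, 2 rose and 0 fell. Tab2 lost its call without either control or silenced replicate 3, 4 or 7.

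Satb1 had 3 probe sets. The brightest, 1416008_at, read 227, 240, 313, 297 and 315 with Trp63 siRNA, against 239 and 337 with control siRNA. The values formed low and high sets within each group: silenced replicates 1 and 2 and control replicate 5 lay at 240 or below, and silenced replicates 3, 4 and 7 and control replicate 6 at 297 or above. The difference between groups was -0.04 (95% interval -0.40 to 0.32, limma adjusted p = 0.891). At 1416007_at the same arrays were low and high, with 196, 202, 238, 238 and 248 with Trp63 siRNA, against 214 and 288 with control siRNA (log2 difference -0.14, limma adjusted p = 0.471). At the dim 1436182_at all 5 silenced arrays, at 123 to 145, were below the controls at 153 and 157 (log2 difference -0.15, 95% interval -0.30 to -0.0046, limma adjusted p = 0.152).

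The low Satb1 arrays were those of higher melanocyte level. With that level as a block the differences were -0.08 at 1416008_at (SE 0.058 in place of 0.16, limma adjusted p = 0.344), -0.17 at 1416007_at (limma adjusted p = 0.0506) and -0.16 at 1436182_at (limma adjusted p = 0.0995). At 1416007_at the difference was -0.24 among the arrays of lower level and -0.09 among those of higher level, each with 1 control and no test. Silenced replicates 1 and 2 did not overlap silenced replicates 3, 4 and 7 at 9 of the 15 probe sets (2 of Satb1, lower, and those of Gli1, Hoxc13, Dlx2, Lhx2 and Edar, 1 of Dlx3 and 1 of Msx1, higher), beside 40.9% of all probe sets. The part of melanocyte RNA in these differences was not tested. Of 9 measured partners of Satb1, 1 rose (the acetyltransferase gene Kat2b, log2 difference 0.74, limma adjusted p = 0.00376), 2 fell and 6 did not pass (median -0.02). Among all 12393 genes 8.03% rose and 8.57% fell. The deacetylase gene Hdac2 fell by 0.41 and Pml, of nuclear bodies, by 0.31. Kat2b kept its call whichever array was left out. Hdac2 and Pml lost theirs whenever control replicate 5 or 6 or silenced replicate 3, 4 or 7 was left out. Pml also lost its call without silenced replicate 2.

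Of 24 other regulators of the follicle, 3 rose, 2 fell and 19 did not pass (median -0.01), at a background of 8.03% higher and 8.57% lower. The inhibitor of differentiation gene Id3, a target of BMP signals, read 1217 ± 58.4 (SD, n = 5) with Trp63 siRNA and 783 ± 58.4 (SD, n = 2) with control siRNA (log2 difference 0.63, SE 0.074, limma adjusted p = 0.000649), while its relative Id2 fell by 0.43. The receptor gene Fgfr2, of epithelial FGF signals, read 358 ± 18.3 with Trp63 siRNA and 614 ± 61.6 with control siRNA (log2 difference -0.75, SE 0.081, limma adjusted p = 0.000393). The vitamin D receptor gene Vdr rose by 0.44 and Sox9, of the outer root sheath and stem cells, by 0.35. Id2 lost its call without either control, and Vdr and Sox9 lost theirs without control replicate 6, Sox9 also without silenced replicate 7. Id3 and Fgfr2 kept their calls whichever array was left out. Without control replicate 6, 1 of the list rose and 1 fell.

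Markers of cell types moved beside the falls of Ptch1 and Hoxc13, while 8.03% of all genes rose and 8.57% fell. All 11 measured keratinocyte markers fell (median -0.55), and their summed intensity was 48997 to 53009 with Trp63 siRNA, against 66246 and 70643 with control siRNA. Fewer keratinocytes and less of these transcripts per cell cannot be told apart here. With the spike-in level as a block 10 of them passed, and within the arrays of low spike-in level 8 passed. Krt14 and Krt5, the basal keratins and the brightest of the list, fell by 0.20 and 0.32, and Sfn, Itga6 and Col17a1 fell by 0.60, 0.89 and 0.96. Of the 11, 10 were above the array median on every array, and Krt15 was below it on every array. Of 12 fibroblast markers 1 rose (Col1a1, log2 difference 0.44, but not without control replicate 6), 0 fell and 11 did not pass. Their sums followed the melanocyte split, with 3676 and 3509 on silenced replicates 1 and 2 and 3012 to 3057 on silenced replicates 3, 4 and 7, against 3203 on control replicate 5 and 2408 on control replicate 6. With the melanocyte level as a block 4 of the 12 rose, in a fit that called 5458 of all 22626 probe sets. The bright Vim and Col6a2 differed by 0.24 and 0.12 without passing. Of 10 measured dermal papilla markers 3 rose, 0 fell and 7 did not pass (median -0.01), and 1 was above the array median on every array. Their sums were 1865 to 2197 with Trp63 siRNA, against 1561 and 1949 with control siRNA. Prom1 (571 with Trp63 siRNA and 160 with control siRNA, log2 difference 1.74, limma adjusted p = 1.0e-05) and Ncam1 (329 and 123, log2 difference 1.30, limma adjusted p = 6.4e-05) rose, as did Sox2, which was dim (93.7 and 84.2) and lost its call without either control or silenced replicate 3, 4 or 7. The brightest of the others, Sostdc1, differed by -0.69 (limma adjusted p = 0.0503). Sostdc1 differed by -1.09 without control replicate 5 (limma adjusted p = 0.0108) and by -0.29 without control replicate 6 (limma adjusted p = 0.38), and passed without silenced replicate 1, with array weights, with a pseudocount of 64 and with either filter on dim probe sets.

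Of 9 measured melanocyte markers 0 passed limma's test (0 at an unadjusted p under 0.05). Dct read 3136 ± 1048 (SD, n = 5) with Trp63 siRNA and 3101 ± 916 (SD, n = 2) with control siRNA, and Pmel, Tyr and Slc45a2 differed by 0.16, -0.35 and -0.15. Of 10 immune cell markers 1 rose (Cd68, 0.60, not without control replicate 6 or silenced replicate 2 or 7), 1 fell (Tyrobp, -0.20, not without either control) and 8 did not pass, with sums of 1711 to 1925 with Trp63 siRNA, against 1764 and 1867 with control siRNA. Csf1r and Cd3e, the brightest, differed by -0.06 and -0.18, and Cd3e passed without silenced replicate 1 (limma adjusted p = 0.0397). Of the 17 genes of other tissues 1 fell (Prl, -0.13, not without either control), with a median of -0.05. The shares over all 12393 genes were 8.03% higher and 8.57% lower. The part of these marker changes in the falls of Ptch1 and Hoxc13 was not tested.

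The genes closest to Ptch1 in pattern over the 7 arrays were P4ha1, a collagen hydroxylase subunit (Pearson r = 0.998), Gpsm2, a spindle orientation protein (r = 0.995), and Pon2, a lactonase (r = 0.995). They differed by -0.48, -0.54 and -0.56 between groups. Closest to Hoxc13 were 1110051M20Rik (r = 0.997), the pyruvate dehydrogenase kinase gene Pdk1 (r = 0.994) and Frmd4b (r = 0.992), which differed by -0.29, -0.86 and -0.79. These correlations describe 7 points that share the difference between groups and the arrays' other differences, and 277 genes reached an r above 0.95 with Ptch1 and 238 with Hoxc13.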

How the data were processed

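RNA of each sample was labelled with biotin and hybridised to 1 Affymetrix array, per the labels' protocols. The deposited table holds a linear intensity for every probe set and array, and the sources used here do not state how the authors summarised or normalised them. After 64 control probe sets were removed from 22690, the platform annotation gave 1 symbol to 20380, several to 691 and none to 1555. Outside the members, a gene stands for its probe set of highest mean over all arrays.

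Array medians differed by at most 0.04 on the log2 scale, so no further normalisation was applied. The 2 groups, taken from the labels, were compared on log2(intensity + 16), which shrinks the change of dim genes, with limma 3.58.1 in R 4.3.3 (lmFit, then eBayes allowing a trend in the variance). The p-values of all 22626 probe sets were adjusted together by Benjamini-Hochberg, unfiltered, with 0.05 as threshold. The fit was tested on simulated data.

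The members and the 14 gene lists were chosen with earlier results of these data known. From each list up to 4 genes past the threshold with the smallest p are named, or the 2 with the smallest p where 0 passed, with the 2 brightest of marker lists, and the 3 genes of highest correlation with each member that passed. Smo, Gli2, Gli3, Sufu, Gsk3b, Shh, Eda, Foxn1 and Sox9 were named after their values were seen. Other settings tried were pseudocounts of 1 and 64, centring on array medians, quantile normalisation, removal of the dimmest 25 or 50 percent, the variance model, array weights, the choice of probe set and the loss of each array. Splits by melanocyte and spike-in level were added after seeing the data. Promoter sequences are RefSeq's. Figures were drawn with matplotlib 3.10.9.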

Additional observations from a re-analysis of the deposited data

How the results depend on the processing

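The 2 lower and 0 higher calls among the 15 probe sets held, with the same Ptch1 and Hoxc13 probe sets, under quantile normalisation, median centring, both pseudocounts, the filter at the 25th percentile, both other variance models, array weights and the loss of any single array (2 to 2 lower, 0 to 0 higher). The filter at the 50th percentile removed Hoxc13 and left 1. Of the splits, which were chosen after seeing the data, the block fits kept 2 and the low spike-in arrays gave 0. The spike-in block fit compares the same 2 silenced and 2 control arrays of low level, and differs only in its estimated spread. The arrays within each melanocyte level held 1 control. For single genes and probe sets in them only differences are given, and calls among the 15 probe sets are left out. Of their calls only the counts over all probe sets are given, to show the range. Where 1 control remained, it was taken to vary like the silenced arrays, which was not tested. Over all probe sets the count of 3618 ran from 1374 (without control replicate 6) to 5502 (without silenced replicate 1) with 1 array left out, and was 2013 without control replicate 5. It was 5458 with the melanocyte level as a block, 1870 within the arrays of higher and 6883 within those of lower melanocyte level, 1920 with the spike-in level as a block and 783 within the arrays of low spike-in level. The 4 members above the array median became 2 with the median over a gene's probe sets and 1 against the 60th percentile, and ranged from 4 to 5 with 1 array left out. No paired analysis was possible because the groups share no replicate number.

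Signs turned only at probe sets and genes that had not passed, and the cause was not tested. With 1 array left out, the log2 difference ran from -0.036 to 0.00061 at Ptch1 1450824_at, from -0.064 to 0.15 at Lhx2, from -0.0025 to 0.17 at Edar, from -0.28 to 0.20 at Satb1 1416008_at and from -0.35 to 0.061 at Satb1 1416007_at. It ran from -0.015 to 0.097 at Shh, from -0.095 to 0.34 at Col6a2, from -0.13 to 0.61 at Vim, from -0.32 to 0.29 at Dct and from -0.18 to 0.51 at Pmel. Quantile normalisation gave 0.011 at Ptch1 1450824_at and median centring 0.0039 at Dct. Array weights gave -0.0077 at Lhx2, 0.063 at Satb1 1416008_at, -0.00086 at Shh and -0.060 at Pmel. Within the arrays of higher melanocyte level the values were 0.0050 at Ptch1 1450824_at, 0.040 at Dlx2, 0.0024 at Dlx3 1450475_at, 0.020 at Slc45a2 and 0.19 at Dct, within those of lower level 0.0038 at Eda, and with that level as a block 0.064 at Dct. In both spike-in fits they were 0.0086 at Gli1, 0.035 at Dlx3 1450475_at, 0.044 at Dct and 0.026 at Csf1r.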
